A study of Mus musculus with 22 samples.

Results

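The 9 genes described here specify spinal interneurons or the midbrain and anterior hindbrain, and they were followed by CUT&RUN in embryonic stem cells (ESC) of the mouse and in neural progenitors (NPC) derived from them: Dbx1, Dbx2, Evx1, Evx2, En1, En2, Vsx1, Gbx2 and Sim1. They were chosen by name, and all 9 were found among the 24467 genes of the count table. In CUT&RUN an antibody brings a nuclease to its target on chromatin, and the DNA cut free there is sequenced. Each value counts reads in a window of 5000 bp centred on 1 transcription start site of the gene, so all windows have the same width and levels can be set side by side.

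All libraries came from C57BL/6 ESC with the genotype label "untagged, Tir1" and the treatment label "untreated". The ESC were kept in N2B27 medium with LIF at 100 U/mL, the GSK3 inhibitor CHIR99021 at 3 µM and the MEK inhibitor PD0325901 at 1 µM. The NPC were made from ESC by 72 h in bFGF (10 ng/mL) followed by 48 h in SAG (500 nM), which activates Hedgehog signalling. Antibodies were against SUZ12, JARID2, MTF2, H3K27me3 and H3K4me3, with 2 libraries for each in each cell type (biological replicates, per the series' design), and IgG gave 1 library per cell type. The 22 libraries are a bulk measurement, so fewer cells carrying a signal and less signal per cell cannot be told apart.

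Dbx1 and Dbx2 encode homeodomain proteins of progenitors in the intermediate neural tube, and Evx1 and Evx2 encode homeodomain proteins of the V0 interneurons that arise there. En1 marks V1 interneurons and, with En2, the midbrain and anterior hindbrain. Vsx1 is expressed in V2 precursors and retinal bipolar cells, Gbx2 positions the boundary between midbrain and hindbrain from its hindbrain side, and Sim1 marks V3 interneurons and hypothalamic neurons. Sim1 encodes a bHLH-PAS factor and not a homeodomain protein, so the name "homeobox determinants" holds for the other genes only. Genes of this kind are known targets of Polycomb repressive complex 2 (PRC2), the enzyme behind the repressive mark H3K27me3, at CpG-rich promoters of developmental genes. SUZ12 is a core subunit of PRC2, JARID2 and MTF2 are accessory subunits of its different forms, and H3K4me3 marks active and poised promoters.

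Promoters are shown for the genes on which the results turn: Evx2, with the highest SUZ12 level of the group, En1, with the largest SUZ12 change, Gbx2, with the largest H3K27me3 change, and Vsx1, with the lowest SUZ12 level in ESC. Each is the 250 bases before the RefSeq start, 5′ to 3′ on the gene's strand (RefSeq, GRCm38.p6), with CpG dinucleotides in capitals. Evx2 lies at chr2:74659558-74659807 (minus strand), En1 at chr1:120602237-120602486 (plus strand), Gbx2 at chr1:89931177-89931426 (minus strand) and Vsx1 at chr2:150689138-150689387 (minus strand).
Evx2: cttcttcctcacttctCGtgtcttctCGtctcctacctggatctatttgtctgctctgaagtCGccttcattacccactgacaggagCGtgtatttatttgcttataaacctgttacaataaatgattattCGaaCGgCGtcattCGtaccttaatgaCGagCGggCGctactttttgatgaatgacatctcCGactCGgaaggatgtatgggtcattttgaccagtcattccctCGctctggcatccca
En1: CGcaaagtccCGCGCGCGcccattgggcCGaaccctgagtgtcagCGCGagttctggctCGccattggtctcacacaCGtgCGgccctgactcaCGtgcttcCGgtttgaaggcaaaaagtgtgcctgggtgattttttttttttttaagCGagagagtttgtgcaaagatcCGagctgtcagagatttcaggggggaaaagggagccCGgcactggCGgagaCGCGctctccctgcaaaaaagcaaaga
Gbx2: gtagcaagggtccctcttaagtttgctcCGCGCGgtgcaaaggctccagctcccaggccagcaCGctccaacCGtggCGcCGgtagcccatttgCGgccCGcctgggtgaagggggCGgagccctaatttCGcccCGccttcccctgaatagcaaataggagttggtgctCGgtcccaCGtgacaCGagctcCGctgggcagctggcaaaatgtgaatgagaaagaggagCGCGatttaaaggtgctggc
Vsx1: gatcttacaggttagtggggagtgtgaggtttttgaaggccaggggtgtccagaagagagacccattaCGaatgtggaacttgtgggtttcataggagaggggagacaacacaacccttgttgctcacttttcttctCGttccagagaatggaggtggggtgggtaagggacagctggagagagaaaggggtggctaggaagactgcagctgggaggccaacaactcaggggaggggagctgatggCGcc

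En1 had 19 CpGs in these 250 bases, Gbx2 18, Evx2 14 and Vsx1 3. Among the 15674 promoters that could be matched to windows, the median was 9 CpGs, 24.89% held at least as many as En1 and 75.64% at least as many as Vsx1. Of the other members, Dbx1 had 12, Sim1 11, Evx1 10 and Dbx2 9, while En2 was not matched. The motif searched was CG, which reads the same on both strands, and 92.53% of all promoters of this length held at least 1. The CpG count is a description of these 250 bases and not of the whole 5000 bp window.

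The windows lay on mm10 chromosomes 1 (En1 and Gbx2), 2 (Evx2 and Vsx1), 5 (En2), 6 (Evx1), 7 (Dbx1), 10 (Sim1) and 15 (Dbx2). The Evx1 window shares 3665 bp with that of Evx1os, a noncoding gene that starts 1335 bp away, so reads of these genes cannot be told apart. Evx2 starts 8752 bp from Hoxd13, at the end of the HoxD cluster, and their windows do not overlap.

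H3K4me3 libraries were deepest, with 3264267 to 8425292 counts over all windows, and H3K27me3 libraries had 647615 to 1569812. The PRC2 subunits had less: SUZ12 448667 to 857691, MTF2 439379 to 832117 and JARID2 339591 to 492529 counts, beside 298458 in the ESC and 667898 in the NPC library of IgG. Levels are given as counts per 1e6 counts of a library (CPM), and 3 counts corresponded to at most 10.1 CPM in any library. The labels of the cells were checked by H3K4me3 at marker genes, where 29.2% of all windows fell and 26.7% rose. From ESC to NPC, 7 of 8 ESC markers fell and none rose, 8 of 8 neural progenitor markers rose, and 5 of 6 neuronal markers rose. Among the neuronal markers that rose, Dcx (mean 0.948 CPM in ESC, 6.59 CPM in NPC) and Map2 (2.17 and 6.07 CPM) had low signal. Of 4 mesoderm markers 1 rose and 3 fell, and of 4 endoderm markers 1 rose and 2 fell. The neuronal and other markers move with the cell type, and their part in the results was not tested. The NPC replicates of H3K27me3 and MTF2 stood apart from each other: the 500 windows with most SUZ12 in ESC held 14.1% and 24.5% of H3K27me3 counts, and 4.42% and 9.63% of MTF2 counts, in replicates 1 and 2. For the changes and the differences between antibodies, some results at the genes described here are also given with these libraries left out. Results for the lists of other genes and the H3K27me3 count over IgG in NPC are given with all libraries only.

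In ESC, SUZ12 stood well above IgG at 7 of the 9 genes. The highest level was at Evx2, with 792 and 626 CPM in the 2 ESC libraries against 36.9 CPM in IgG, which placed it at the 99.98th percentile of all windows. En1 had 444 and 381 CPM, Evx1 414 and 346 CPM, and Dbx1 357 and 254 CPM. Sim1 (220.4 and 218 CPM), En2 (234 and 179.5 CPM) and Gbx2 (168 and 120.3 CPM) followed, with Sim1 and En2 overlapping. Dbx2, at 66.5 and 72.2 CPM, and Vsx1, at 78.1 and 57.4 CPM, overlapped each other and lay lowest. Against IgG, in a joint edgeR fit of the 22 libraries (called at an adjusted p below 0.05 and a log2 fold of at least 1), 7 of 9 genes were called in ESC, where 5.67% of 23836 windows were called. Dbx2 (log2 fold 1.25 ± 0.53 SE) and Vsx1 (0.71 ± 0.50 SE) were not. The IgG library of a cell type has no replicate, and the fit assumes that it varies like the other groups. Without SUZ12 ESC replicate 1 the count was 4 of 9.

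From ESC to NPC, SUZ12 fell at all 9 genes in the edgeR quasi-likelihood test (adjusted p below 0.05 over 21238 windows), where 13.1% of windows fell and 2.97% rose. En1 went from 444 and 381 CPM in ESC to 178 and 163 CPM in NPC, a log2 change of -1.53 ± 0.22 SE (adjusted p = 1.55e-10). Sim1 went to 131 and 86.9 CPM (-1.26 ± 0.22), Evx1 to 212 and 189 CPM (-1.18 ± 0.21) and Dbx1 to 148 and 178 CPM (-1.18 ± 0.22). At each of these genes both NPC libraries lay below both ESC libraries. Evx2 kept the highest level in NPC, at 461 and 446 CPM (-0.90 ± 0.22), while En2 went to 131 and 147 CPM (-0.85 ± 0.22). The low pair, Vsx1 at 40.8 and 51.3 CPM in NPC (-0.86 ± 0.26) and Dbx2 at 42.9 and 49.0 CPM (-0.83 ± 0.26), ended near the IgG level, with log2 ratios to IgG of 0.11 and 0.21 in NPC. Gbx2 had the smallest change (-0.64 ± 0.22, adjusted p = 0.0276) and was the one gene whose libraries overlapped, with 122 and 103 CPM in NPC; both ESC libraries lay above both NPC libraries at 17.6% of all windows. The median change of the 9 genes was -0.90, against 0.07 for all windows. The 500 windows with most SUZ12 in ESC held 16.3% and 14.3% of SUZ12 counts in ESC and 6.89% and 6.94% in NPC. They were picked by these ESC values. The 9 genes held 0.277% and 0.225% in ESC and 0.147% and 0.141% in NPC, so a lower share was not particular to them. DESeq2 called 6 of 9, without Gbx2 (adjusted p = 0.092), Dbx2 (0.101) and Vsx1 (0.117), beside 7.22% of all windows. The joint fit of the 22 libraries called 0, beside 6.78%. Relative to IgG, the mean log2 ratio was lower in NPC than in ESC at every gene of the group except Sim1, where it was 2.25 in ESC and 2.41 in NPC. IgG itself was lower in NPC at Sim1 (40.2 CPM in ESC, 18.0 CPM in NPC) and at En1 (43.6 and 22.5 CPM), whose ratio was 3.04 in ESC and 2.78 in NPC. At Dbx1 the ratio was 3.04 and 1.99, and at Evx2 4.02 and 3.40.

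A fall in CPM did not remove the genes from the top of the SUZ12 distribution. In NPC 7 of 9 were above the 95th percentile of all windows, the same count as in ESC, and the median percentile of the group was 98.6 in ESC and 99.18 in NPC. Against IgG no window of 23836 was called for SUZ12 in NPC (0%), and 495 windows, 6 of the 9 genes among them, had an unadjusted p below 0.05 with the fold. The SUZ12 count depends on the scaling: with library totals 6 of 9 genes fell, while the split of all windows moved from 630 rising and 2786 falling to 2391 and 2031, and the median of all windows rose to 0.32. A minimum count of 30 left 3696 windows, and Vsx1 was not among them. There 1 gene fell (En1), and Dbx2 and Gbx2 had changes of 0.0051 and 0.19. Without ESC replicate 1, 5 genes fell, without NPC replicate 1, 4, and without NPC replicate 2, 6.

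**Figure D1:**
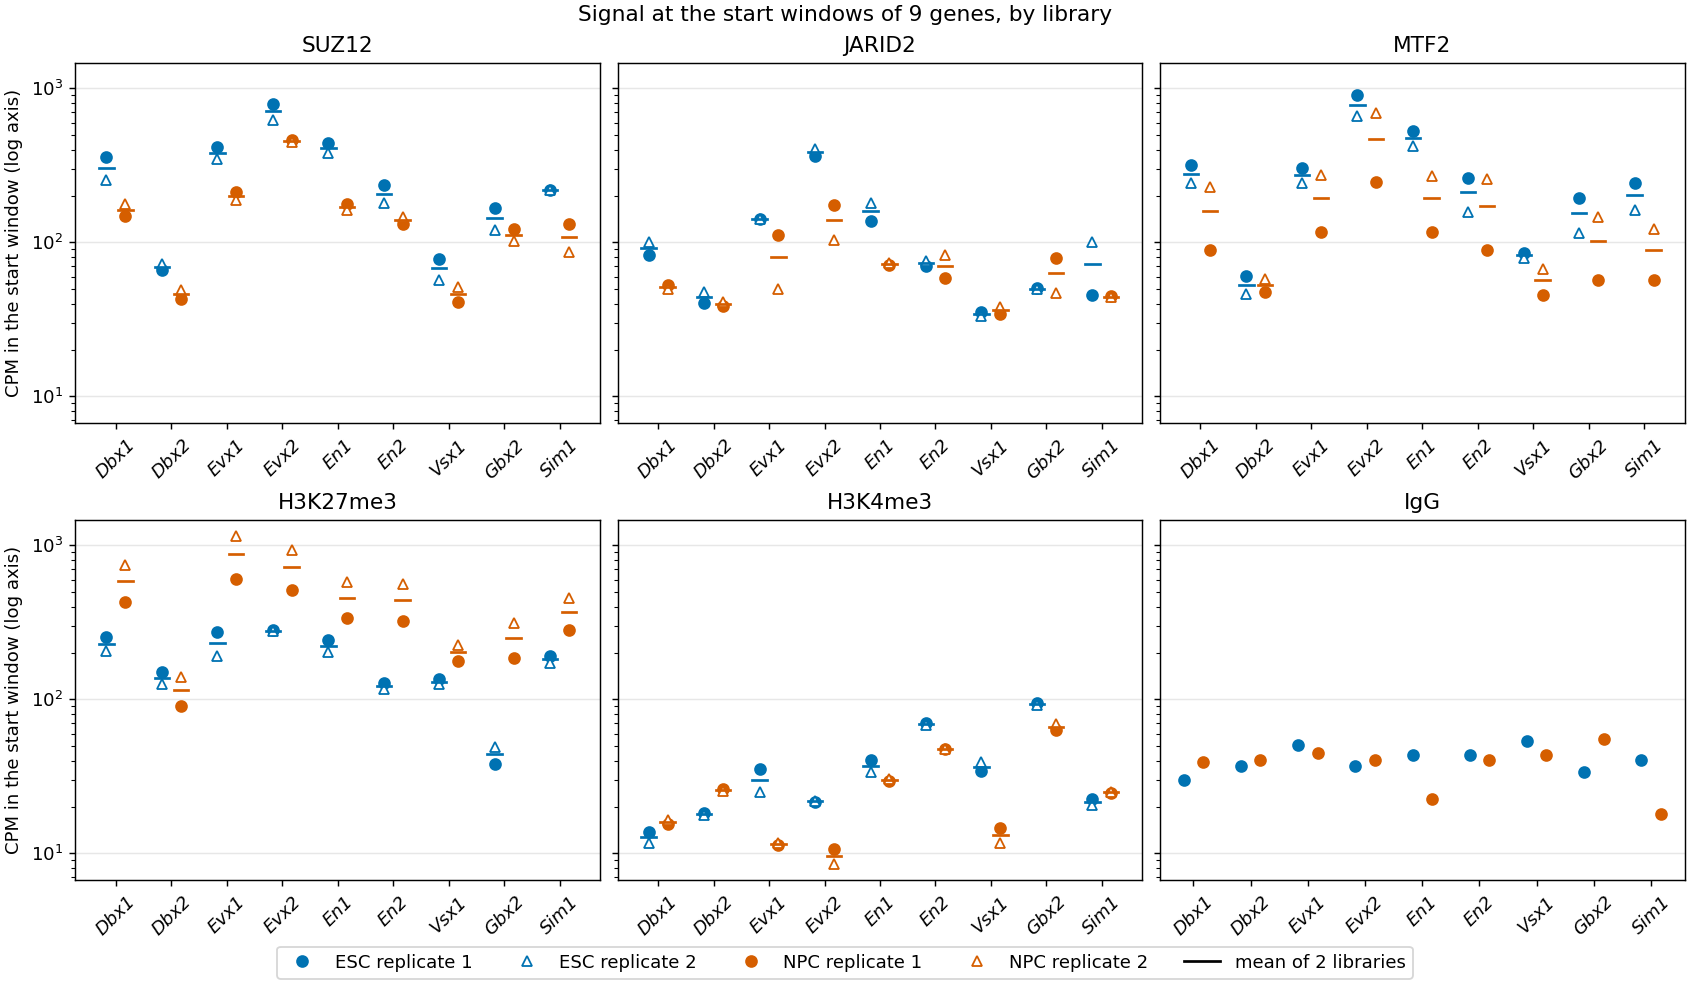
CPM in the start window of each gene (log axis) for each antibody and IgG, with circles for replicate 1, triangles for replicate 2, blue for ESC, orange for NPC and a bar at the mean of 2 libraries. Evx2 has the highest SUZ12, JARID2 and MTF2 mean in both cell types, and the H3K27me3 values of NPC lie above those of ESC for 8 of 9 genes, all but Dbx2, as they do at 28.8% of all windows.

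JARID2 was highest at Evx2 in both cell types. Evx2 had 365 and 404 CPM in ESC and 175 and 103 CPM in NPC, and it fell by 1.44 ± 0.20 SE on the log2 scale (adjusted p = 1.45e-07). En1 had 138 and 181 CPM in ESC and 71.1 and 73.6 CPM in NPC, and it fell by 1.17 ± 0.24 (adjusted p = 0.000955). These were the 2 of 9 genes that passed, where 0.750% of 21456 windows fell and 0.0792% rose. Dbx1 (83.0 and 99.9 CPM in ESC, 52.8 and 50.1 CPM in NPC) and Evx1 (141 and 143 CPM, then 112 and 50.1 CPM) had changes of -0.85 ± 0.28 (adjusted p = 0.169) and -0.75 ± 0.24 (0.161). Sim1 (45.3 and 99.9 CPM, then 44.7 and 44.2 CPM) had -0.74 ± 0.31, and Dbx2, En2, Vsx1 and Gbx2 lay between -0.17 and 0.37. Both ESC libraries lay above both NPC libraries at Dbx1, Evx1, Evx2, En1 and Sim1, as at 17.5% of all windows. Without ESC replicate 2 the En1 call was lost (-0.96, adjusted p = 0.265), and without NPC replicate 1 Evx1 passed as well (-1.54, adjusted p = 0.00321). No window was called for JARID2 over IgG in ESC or in NPC (0% in each). At an unadjusted p below 0.05 with the fold there were 560 windows in ESC, with 2 of the genes (Evx2 and En1), and 140 in NPC, with 1 (En1).

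MTF2 in ESC was highest at Evx2 and En1 and lowest at Dbx2 and Vsx1, as SUZ12 was. Evx2 had 905 and 660.0 CPM, En1 526 and 424 CPM, and Dbx1 316 and 242 CPM, while Vsx1 (85.3 and 79.4 CPM) and Dbx2 (60.1 and 45.9 CPM) were lowest. In ESC 7 of 9 genes were called over IgG, where 9.10% of windows were called. The 2 left out were again Dbx2 and Vsx1, and without MTF2 ESC replicate 1 the count was 3. In NPC no window was called over IgG (0%), while 650 windows and 6 of the genes had an unadjusted p below 0.05 with the fold. Without MTF2 NPC replicate 1, 2 of the genes were called there.

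None of the 9 genes passed for a change in MTF2 with edgeR, where 8.89% of 20885 windows fell and 3.28% rose. Vsx1 and Sim1 had an unadjusted p below 0.05, and DESeq2 called Sim1 alone (1 of 9). The NPC replicates were far apart: Evx2 had 246 and 688 CPM, En1 116 and 271 CPM, and Sim1 56.9 and 122 CPM. The changes ran from -1.56 ± 1.10 SE at En1 to -0.31 ± 0.31 at Dbx2, and all 9 were below 0. Sim1, at 244 and 163 CPM in ESC, had -1.46 ± 0.60 (adjusted p = 0.0883). Without NPC replicate 2, Sim1 (-2.20, adjusted p = 0.023) and Gbx2 (-1.82, 0.0306) passed. Without NPC replicate 1 none did, and the changes were -0.96 at Sim1, -0.30 at Gbx2, -0.22 at Evx1 and 0.059 at En2. With library totals the split of all windows moved from 684 rising and 1856 falling to 2107 and 1439, the median of all windows rose to 0.35, and again none of the 9 genes passed.

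The change in JARID2 was set against the change in MTF2 as an interaction over 8 libraries, and it passed at 0 of 9 genes with edgeR, where 2.78% of windows were positive and 0.662% negative. The differences ran from -0.41 ± 1.31 SE at Evx2 (95% interval from -2.98 to 2.16) to 1.28 ± 0.58 at Gbx2 (0.14 to 2.43, adjusted p = 0.191). Gbx2 was the 1 gene with an unadjusted p below 0.05, and DESeq2 called 0. The 95% intervals crossed 0 at the other 8 genes, and those of Evx2, Evx1, Dbx1 and En1 allow differences of more than 1 on the log2 scale in either direction. Without MTF2 NPC replicate 2, Gbx2 passed (2.24, adjusted p = 0.00906). With library totals the split of all windows moved from 630 positive and 150 negative to 323 and 510.

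**Figure D2:**
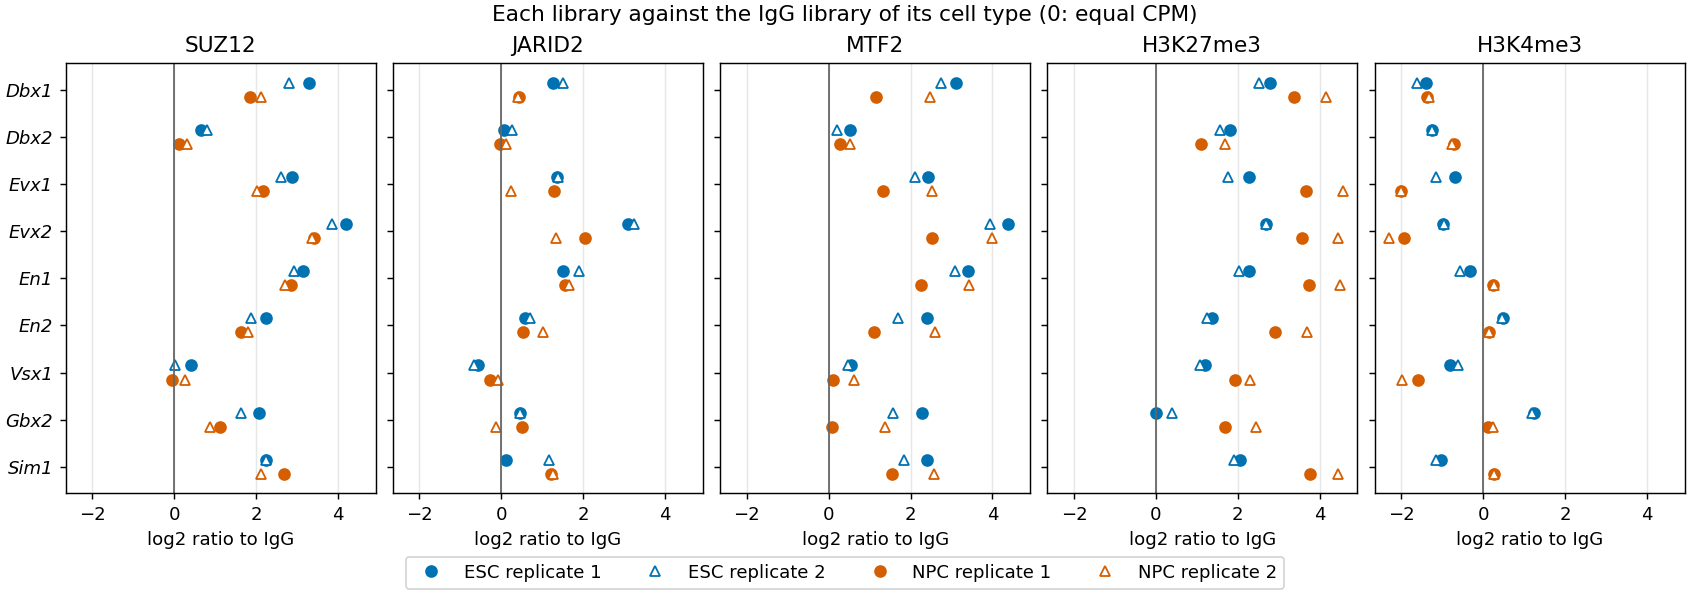
log2 ratio of each library to the IgG library of its cell type at each gene, with 0 at equal CPM. Dbx2 and Vsx1 lie below 1 for SUZ12, JARID2 and MTF2 and above 1 for H3K27me3, and Gbx2 lies near 0 for H3K27me3 in ESC alone.

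H3K27me3 lay above IgG at all 9 genes in both cell types, though by little at Gbx2 in ESC. In ESC 8 of 9 were called over IgG, where 22.5% of windows were called, and in NPC 9 of 9, where 15.1% were called. Evx2 had the highest mean in ESC (281 and 276 CPM), followed by Evx1 (275 and 191 CPM) and Dbx1 (254 and 207 CPM), and the libraries of Evx1 and Dbx1 overlapped. Dbx2 and Vsx1, with SUZ12 not called over IgG, had 151 and 125 CPM and 136 and 125 CPM of H3K27me3, with log2 folds over IgG of 2.52 ± 0.49 SE and 1.89 ± 0.47. Gbx2 had 38.3 and 49.4 CPM, beside 33.5 CPM in IgG, and its log2 fold of 0.97 ± 0.72 was not called.

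Gbx2 was the 1 gene of 9 that passed for a change in H3K27me3 with edgeR on its 4 libraries. It went to 186 and 315 CPM in NPC, a rise of 2.83 ± 0.76 SE on the log2 scale (adjusted p = 0.00109), in a comparison where 22.9% of 21863 windows rose and 23.5% fell. The other values lay higher in NPC too, except at Dbx2. Evx1 had 606 and 1143 CPM in NPC (2.21 ± 1.38, adjusted p = 0.175), En2 323 and 562 CPM against 127 and 117 CPM in ESC (2.16 ± 1.00, 0.0623), and Evx2 516 and 939 CPM (1.70 ± 1.28, 0.268). Dbx1 had 431 and 750.4 CPM (1.66 ± 1.16), En1 337 and 578 CPM against 242 and 204 CPM (1.34 ± 1.04), Sim1 284 and 457 CPM against 192 and 173 CPM (1.32 ± 0.94), and Vsx1 176 and 227 CPM (0.89 ± 0.72). At these 8 genes both NPC libraries lay above both ESC libraries, as at 28.8% of all windows, while Dbx2 overlapped, with 90.9 and 139.5 CPM (0.02 ± 0.61). DESeq2 called 5 rises, beside 15.2% of all windows called, and the joint fit of the 22 libraries called 8, beside 54.9%.

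The H3K27me3 result rests on single libraries. Without NPC replicate 1 the change was 2.78 at Evx1 and 2.71 at En2. Without NPC replicate 2 it was 1.10 at Evx1, 1.13 at En2 and -0.87 at Dbx2. When ESC replicate 1 or ESC replicate 2 was left out, Gbx2 had changes of 2.66 and 2.88 and did not pass. With library totals 4 genes rose and the split of all windows moved from 5010 rising and 5133 falling to 1676 and 4714. With scaling on background windows 1 gene rose, the split was 3701 and 6209, and the median of all windows moved from 0.12 to -0.14.

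H3K4me3 was low at these genes. Only Gbx2 was called over IgG, in ESC (36.0% of windows called) and in NPC (38.9%), and when either NPC replicate was left out it was not called there. It had the highest level of the group, 94.3 and 92.2 CPM in ESC and 63.1 and 68.8 CPM in NPC. En2 was next, with 69.9 and 68.5 CPM in ESC and 47.8 and 47.5 CPM in NPC. The ESC means of the other 7 lay from 12.7 CPM at Dbx1 to 36.9 CPM at En1, below the CPM of their IgG window. The joint fit, which scales the libraries by TMM, placed these 7 on both sides of IgG. Their log2 folds ran from -0.39 (Dbx1) to 0.61 (En1) in ESC, and from -1.16 (Evx2) to 1.39 (Sim1) in NPC. No gene of the group was above the 95th percentile of H3K4me3 in either cell type, and the median percentile was 53.23 in ESC and 50.7 in NPC.

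Within these low values, H3K4me3 fell at 6 genes and rose at 1, where 29.2% of 19776 windows fell and 26.7% rose. Vsx1 went from 34.2 and 38.9 CPM in ESC to 14.7 and 11.6 CPM in NPC (-1.54 ± 0.15 SE, adjusted p = 2.42e-22). Evx1 went from 35.1 and 25.1 CPM to 11.3 and 11.6 CPM (-1.45 ± 0.16), and Evx2 from 21.7 and 21.8 CPM to 10.7 and 8.55 CPM (-1.25 ± 0.20). En2 (-0.56 ± 0.09), Gbx2 (-0.50 ± 0.09) and En1 (-0.34 ± 0.12) fell by less. Dbx2 rose from 18.2 and 17.7 CPM to 26.0 and 25.4 CPM (0.49 ± 0.16, adjusted p = 0.00366). Dbx1 (0.31 ± 0.20, adjusted p = 0.179) and Sim1 (0.17 ± 0.15, 0.349) did not pass. DESeq2 called 5 falls and no rise, without Dbx2 (adjusted p = 0.139) and En1 (0.258), beside 28.5% of all windows called. The libraries of ESC and NPC did not overlap at any of the 9 genes, with ESC above NPC at 6 and NPC above ESC at 3, as at 37.6% and 37.5% of all windows. With scaling on background windows, which moved the median of all windows to 0.27, 3 genes fell (Vsx1, Evx1 and Evx2) and 2 rose (Dbx1 and Dbx2), and the split of all windows moved from 5286 rising and 5778 falling to 3375 and 2478. The En1 call was lost without ESC replicate 1 (-0.20) and without NPC replicate 1 (-0.27).

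**Figure D3:**
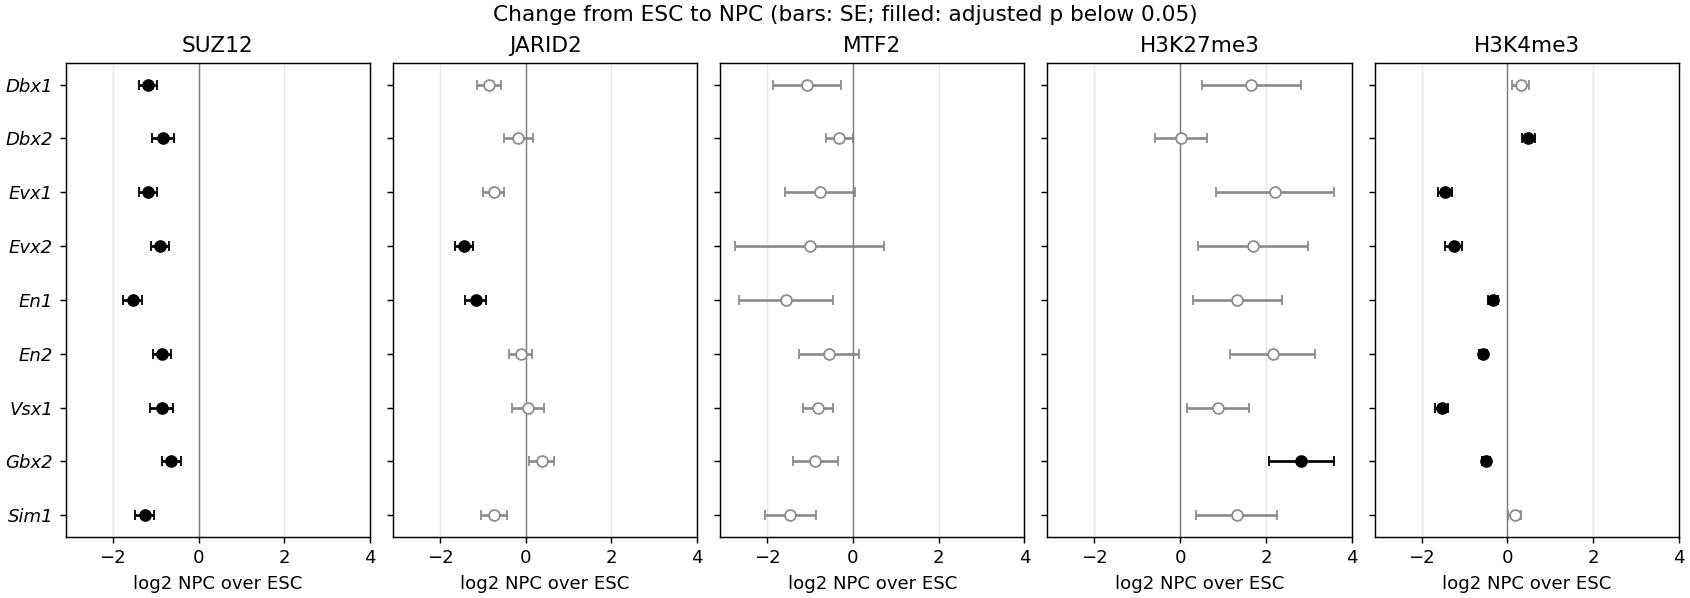
log2 change from ESC to NPC for each gene and antibody, with SE bars and filled points at an adjusted p below 0.05. SUZ12 points are all filled and below 0, H3K27me3 has 1 filled point (Gbx2, 2.83), and the H3K4me3 points lie on both sides of 0.

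The H3K27me3 change exceeded the SUZ12 change at 6 of 9 genes in an interaction test over 8 libraries, where 16.7% of 23478 windows were positive and 14.2% negative. The difference was 3.46 ± 0.81 SE at Gbx2 (adjusted p = 0.000458), 3.39 ± 1.18 at Evx1, 3.00 ± 0.95 at En2, 2.87 ± 1.03 at En1, 2.83 ± 1.06 at Dbx1 and 2.58 ± 0.93 at Sim1. Evx2 (2.61 ± 1.22, adjusted p = 0.0844), Vsx1 (1.71 ± 0.76, 0.0682) and Dbx2 (0.87 ± 0.69, 0.331) did not pass. The SUZ12 libraries were the same as in the single comparison, so this difference is no second measurement of the SUZ12 fall. The count rests on single libraries: without H3K27me3 ESC replicate 1 or 2, SUZ12 ESC replicate 1, or SUZ12 NPC replicate 1 or 2 it was 1, and without SUZ12 ESC replicate 2 it was 2. Without H3K27me3 NPC replicate 1 it was 9, and without H3K27me3 NPC replicate 2 it was 8. With library totals 8 passed and the split of all windows moved from 3915 positive and 3337 negative to 1949 and 3822. With scaling on background windows 3 passed and the split was 2314 and 4004.

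**Figure D4:**
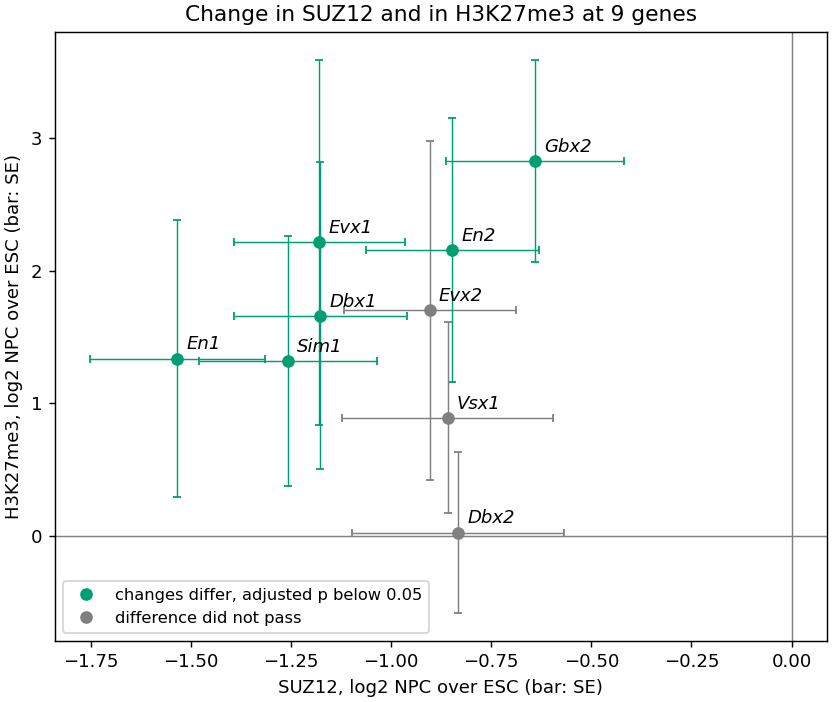
log2 change of H3K27me3 against log2 change of SUZ12 at the 9 genes, with SE bars and green points where the difference of the changes passed at an adjusted p below 0.05. All 9 points lie left of 0 for SUZ12 and at or above 0 for H3K27me3, with Dbx2 at 0.02.

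The H3K4me3 change lay below the H3K27me3 change at 5 of 9 genes, where 17.4% of 23958 windows were negative and 17.4% positive. The difference was -3.44 ± 0.77 SE at Evx1, -3.16 ± 0.63 at Gbx2, -2.74 ± 0.75 at Evx2, -2.54 ± 0.67 at En2 and -2.22 ± 0.54 at Vsx1. En1 (-1.48 ± 0.67, adjusted p = 0.0711), Dbx1 (-1.16 ± 0.71), Sim1 (-0.96 ± 0.63) and Dbx2 (0.66 ± 0.49) did not pass. Without H3K27me3 NPC replicate 1 the difference was -2.02 at En1, -1.70 at Dbx1 and -1.47 at Sim1. Without H3K27me3 NPC replicate 2 it was 1.44 at Dbx2. Evx2 did not pass without H3K4me3 ESC replicate 1 (-2.67) or 2 (-2.80), and En2 did not pass without H3K4me3 ESC replicate 1 (-2.45).

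Other regulators of the same regions were counted from lists of 30 spinal interneuron and progenitor genes, 20 midbrain and hindbrain boundary genes and 11 SIM1 partners and hypothalamic genes. Their counts are read beside the shares of all windows called: for falls 13.1% (SUZ12), 0.750% (JARID2), 8.89% (MTF2), 23.5% (H3K27me3) and 29.2% (H3K4me3), and for rises 2.97%, 0.0792%, 3.28%, 22.9% and 26.7% in the same order. SUZ12 fell at 25 of the 30 spinal genes and rose at none, with a median of -1.06, and the smallest p was at Nkx6-1 (-2.47 ± 0.23 SE), a progenitor homeobox gene. JARID2 fell at 11 of them, with the smallest p at Pax2 (-1.64 ± 0.21), and MTF2 at 3, with the smallest p at Bhlhe22 (-1.90 ± 0.61). H3K27me3 rose at 3 of the 30 (Olig3, Foxn4 and Foxd3), with 3.36 ± 0.97 at Foxd3, a share below the 22.9% of all windows that rose. The median H3K27me3 change of the 30 was 1.54, however, against 0.12 for all windows. DESeq2 called 16 of the 30 for H3K27me3, beside 15.2% of all windows. H3K4me3 rose at 10 and fell at 17, with the smallest p at Nkx2-2 (2.90 ± 0.11), a ventral progenitor gene induced by Hedgehog signalling.

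Of the 20 midbrain and boundary genes, SUZ12 fell at 16 and rose at 2 (Fgf17 and Cnpy1), with the smallest p at Foxa2 (-1.97 ± 0.23). JARID2 fell at 3 of them (Pax2, Lmx1a and Foxa2). MTF2 passed at 0 with edgeR (6 at an unadjusted p below 0.05, 6 with DESeq2). H3K27me3 rose at 2 (Fgf17 and Sp5) and fell at Cnpy1 (-1.92 ± 0.43), with a median of 1.46, and DESeq2 called 11. H3K4me3 rose at 5 and fell at 8, with 1.86 ± 0.10 at Foxa2, a floor plate and midbrain regulator. Of the 11 hypothalamic genes, SUZ12 fell at 5, with -2.42 ± 0.24 at Pou3f2, and JARID2 fell at 2 (Sim2 and Pou3f2), with -1.43 ± 0.22 at Sim2, the paralog of Sim1. MTF2 fell at 3 and rose at Arnt, with -1.49 ± 0.35 at Mc4r. H3K27me3 rose at Arnt and fell at Arnt2 (-1.82 ± 0.42), with a median of 0.66, and DESeq2 called 4. H3K4me3 rose at 4 and fell at 5, with 2.08 ± 0.09 at Pou3f2.

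The pattern of each gene over the 10 antibody and cell type groups was compared with that of all other genes by the root mean square difference of mean log2 CPM, as a description. Sim1 was nearest to Hrk (0.16) and Tbx15 (0.20), and Dbx2 to Tiam2 (0.18) and Rgs16 (0.19). En2 was nearest to Cbln1 (0.22) and Kcnc4 (0.29), Evx1 to Otp (0.24) and Barx1 (0.25), and Vsx1 to Fgf20 (0.24) and Ppl (0.28). En1 was nearest to Ankrd63 and Lhx8 (0.25 each), and Gbx2 to Inhbb (0.26) and Fgf11 (0.28). Evx2 had the least close neighbours, Hoxa9 (0.49) and Hoxa10 (0.51). Within the group, Dbx1 and Evx1 were most alike (0.54) and Dbx2 and Evx2 least (2.55).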

How the data were processed

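The values are read counts per start window that the authors deposited, with no normalization, for 22 CUT&RUN libraries, and no column was left out (0). Per the submitters' processing notes, the build was mm10, and Bowtie2 2.3.4.3 and Picard 2.19 were used in roles that are not stated. How reads were counted, filtered and deduplicated is not given in the sources used here. Per the labels' protocols, Drosophila DNA was added as a spike-in. Its counts were not used here, and a shift shared by all windows was not measured.

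Each antibody was tested between cell types with edgeR 4.0.16 quasi-likelihood fits (R 4.3.3) over its 4 libraries, with TMM scaling, filterByExpr at a minimum count of 10 and Benjamini-Hochberg adjustment over all windows tested, and all 9 genes passed the filter. SE is that of the log2 change. Differences between antibodies were interaction terms, and levels over IgG came from 1 joint fit. For log2 ratios to IgG, 2 counts were added to each window. With 2 libraries a group, the spread behind a p-value is drawn partly from all windows, and not from the gene's own libraries alone. Counting floors cover counting error only. The code was tested on simulated data.

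The members, lists and tests were chosen with earlier results of these data known. All 9 members were named, with the 2 genes of nearest pattern for each (predicted genes and genes with shared windows left out) and, for each list, the gene of smallest p where it passed; other list genes named were chosen after their values were seen. The genes nearest to Dbx1 and 1 list gene are not reported here. The plan was to sum the NPC libraries of JARID2 if they agreed within sampling noise. They did over all windows (chi-square per degree of freedom 0.999) but not at the 500 windows with most SUZ12 in ESC (1.37), so they were kept apart, a choice made after seeing these data. Summed, the same 2 genes fell (Evx2 by 1.43 and En1 by 1.17 on the log2 scale).

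Alternatives were DESeq2 1.42.0, library totals, TMM on background windows, no filter, a minimum count of 30, a replicate block, 1 joint fit, each library left out, and for IgG a log2 fold of at least 2, both IgG libraries together and a rule without a model (every library at least 2-fold over IgG). The crossed block and the summed libraries were added after seeing the data.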

Additional observations from a re-analysis of the deposited data

Results flagged for a closer look

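The differences between antibodies in the change from ESC to NPC passed the interaction test, and each was listed because the same contrast differed between 2 antibodies at 1 gene. For H3K27me3 minus SUZ12 these were Gbx2 (3.46), Evx1 (3.39), En2 (3.00), En1 (2.87), Dbx1 (2.83) and Sim1 (2.58), on the log2 scale. For H3K4me3 minus H3K27me3 they were Evx1 (-3.44), Gbx2 (-3.16), Evx2 (-2.74), En2 (-2.54) and Vsx1 (-2.22). Both sets use the same H3K27me3 libraries, whose NPC replicates differ in level at all of these genes.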

How the results depend on the processing

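Over 8 comparisons and all their alternatives, 723 of the values of single genes kept direction and call, 91 lost the call, 58 gained it and 39 changed sign. At the 9 genes in NPC the windows held 13 to 86 counts for JARID2, 20 to 356 for MTF2 and 19 to 215 for SUZ12. Whether depth limited the results of these PRC2 subunits was not tested. The causes of the changes below were not tested. At a minimum count of 30 fewer windows entered the fits, and whether this moved the values was not tested either.

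For SUZ12, 1 gene passed at a minimum count of 30 (43.7% of windows; Dbx2 0.0051 and Gbx2 0.19 then lay above 0) and 0 in the joint fit (6.78%), and 4 to 9 passed with 1 library left out. For JARID2, 0 passed in the joint fit and 1 to 3 with 1 library left out. JARID2 at En2 was 0.086 at a minimum count of 30, and with 1 library left out En2 ran from -0.33 to 0.13, Vsx1 from -0.0049 to 0.12 and Gbx2 from -0.13 to 0.64. For MTF2, DESeq2 called 1 (6.54%), the joint fit 2 (10.3%) and the crossed block 3 (19.6%), with 0 to 2 when 1 library was left out. At a minimum count of 30 MTF2 was 0.11 at Evx1, 0.31 at En2, 0.10 at Vsx1 and 0.017 at Gbx2, and with 1 library left out it ran from -0.57 to 0.021 at Dbx2 and from -1.62 to 0.059 at En2.

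For H3K27me3, DESeq2 called 5 genes (15.2% of all windows tested), library totals 4 (29.2%), a minimum count of 30 8 (48.6%), the joint fit 8 (54.9%) and the replicate block 0 (36.5%), with 0 to 8 when 1 library was left out. Dbx2 then had -0.12 with DESeq2, -0.25 with library totals, -0.20 with background windows, -0.043 with no filter, -0.093 with the replicate block and -0.077 with the crossed block, and from -0.87 to 0.51 with 1 library left out. For H3K4me3 the joint fit called 1 (28.4%).

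For JARID2 minus MTF2, 0 to 1 passed with 1 library left out. With library totals the difference was -0.024 at Dbx1, -0.11 at Dbx2 and -0.28 at Evx1, and at a minimum count of 30 it was -0.47 at Dbx1, -0.72 at Evx1, -0.29 at En1 and -0.23 at En2. With 1 library left out it ran from -0.27 to 1.23 at Dbx1, -0.15 to 0.45 at Dbx2, -0.72 to 0.88 at Evx1, -0.99 to 0.62 at Evx2, -0.062 to 1.28 at En1 and -0.066 to 1.59 at En2. For H3K27me3 minus SUZ12, 3 passed with background windows, 1 with the replicate block and 1 to 9 with 1 library left out, when Dbx2 ran from -0.0069 to 1.39. For H3K4me3 minus H3K27me3 the range was 3 to 8.

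Over IgG, SUZ12 in NPC gave 1 gene with both IgG libraries (0.0881% of all windows), 5 with library totals (0.743%) and 6 without a model (1.74%). JARID2 gave 1 with library totals (0.134%) and 4 without a model (1.73%) in ESC, and 3 without a model (0.531%) in NPC. MTF2 in NPC gave 2 with both IgG libraries (0.151%), 6 with library totals (0.856%) and 6 without a model (1.15%). H3K4me3 gave 2 in ESC with both IgG libraries (36.8%), and in NPC 0 with the log2 fold minimum of 2, with library totals, without a model and with either library left out. With 1 library left out SUZ12 in ESC gave 4 to 7, MTF2 in ESC 3 to 7 and MTF2 in NPC 0 to 2.

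Samples with the same replicate number did not deviate together (r from -0.24 to 0.012 over windows), and the main tests did not pair them. These correlations cannot exclude a shared preparation. The replicate block left 9 genes called for SUZ12 (15.9% of all windows tested), 2 for JARID2 (0.583%) and 7 for H3K4me3 (54.2%). The correlations for MTF2, H3K27me3 and H3K4me3 lay below -0.1. There the crossed block called 3 (19.6% of all windows tested), 1 (50.2%) and 7 (53.9%) genes.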
